A study of Mus musculus with 14 samples.

Results

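The 10 genes described here encode the MiT/TFE transcription factors (Tfeb, Tfe3, Tfec and Mitf), 3 Rag GTPases (Rraga, Rragc and Rragd) and the folliculin arm that acts on them (Flcn, Fnip1 and Fnip2). They were taken by gene symbol, and each symbol matched exactly 1 of the 55487 genes counted. RNA was measured in 14 libraries of cells sorted from mouse colon: lamina propria macrophages and CD44+ EpCAM+ epithelial cells. Every animal carried the floxed Tsc2 allele on both chromosomes (Tsc2fl/fl). Controls were Lyz2+/+ and carried no recombinase (wt: 3 macrophage and 4 epithelial libraries). The other animals were Lyz2cre/+, with Cre recombinase expressed from the Lyz2 locus of myeloid cells (cre: 3 macrophage and 4 epithelial libraries). Since no group had Cre with an intact Tsc2 gene, effects of deleting Tsc2 and of Cre itself cannot be told apart. No age is stated in the sources used here.

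MiT/TFE proteins are basic helix-loop-helix leucine zipper factors that switch on genes for lysosomes and autophagy. In fed cells the kinase complex mTORC1 phosphorylates TFEB and TFE3 at the lysosome, and 14-3-3 proteins hold them in the cytoplasm. Rag GTPases, as a pair of RagA or RagB with RagC or RagD, bring mTORC1 and its MiT/TFE substrates to the lysosome, and folliculin with FNIP1 or FNIP2 acts on the RagC or RagD partner so that the pair can do so. TSC2, also called tuberin, restrains mTORC1 through the small GTPase Rheb. MITF and TFEC are the members with the narrower known distribution, MITF in pigment cells, mast cells, osteoclasts and macrophages, and TFEC in macrophages.

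MiT/TFE factors bind the E-box CACGTG, so promoter windows from 250 bases before to 50 bases after each start (RefSeq, build GRCm38.p6) were searched for it on both strands. All 10 genes had a window, and the motif was present in 2, Rragc and Fnip1. Of all 32851 windows searched, 7.15% held it. That share is per window, whereas Tfeb and Mitf had 3 windows each and Tfe3 had 2. The longer form TCACGTGA, which contains CACGTG, was in no window of the 10 genes and in 0.974% of all windows. The M-box TCATGTGA was also in none of the 10 and in 0.986% of all. The stretches below show the E-box in capitals in Rragc (position -112 from the start, chr4:123917294-123917353, plus strand) and Fnip1 (position -75, chr11:54438077-54438136, plus strand). For comparison they also show Ctsd, a known MiT/TFE target encoding a lysosomal protease (position -98, chr7:142387893-142387952, minus strand). Rragd (chr4:32982878-32982997, plus strand) is shown as the only one of the 10 called by genotype in epithelial cells. Its window held none of the 3 motifs.
Rragc: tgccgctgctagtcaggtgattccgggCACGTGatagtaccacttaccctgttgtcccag
Fnip1: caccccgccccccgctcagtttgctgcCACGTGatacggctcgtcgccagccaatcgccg
Ctsd: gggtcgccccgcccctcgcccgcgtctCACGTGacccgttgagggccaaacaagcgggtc
Rragd: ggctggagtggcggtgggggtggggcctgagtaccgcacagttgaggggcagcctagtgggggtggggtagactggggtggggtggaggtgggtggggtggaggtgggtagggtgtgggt
A match in these letters describes the sequence only, and a window without one says nothing of sites elsewhere in the gene.

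The libraries held 7269103 to 9364551 counts each. Tsc2, the targeted gene, was at 35.12 ± 8.614 CPM (counts of a gene relative to the TMM-scaled size of its library) in wt macrophages and 31.55 ± 4.717 in cre macrophages (SD, 3 libraries each), a log2 change of -0.14 (SE 0.23, edgeR adjusted p = 0.8601). This is a weak check of the labels, since counts cover the whole gene and a deletion can leave most of its transcript. The summed CPM of 8 macrophage markers was 6405 to 8536 in wt and 10120 to 13560 in cre macrophage libraries, without overlap, and 37.63 to 83.62 in wt and 25.20 to 56.22 in cre epithelial ones. By group mean each of the 8 was higher in cre macrophages, but unevenly. C1qb (2773 CPM in wt, 4335 in cre), C1qa (1511 and 2178) and Cd68 (394.9 and 969.6) differed more than Adgre1 (892.4 and 1023) and Fcgr1 (94.64 and 98.34). Markers of other cells also differed by genotype among macrophage libraries: 8 fibroblast and smooth muscle markers summed to 3256 to 5423 CPM in wt and 1055 to 2832 in cre libraries, and 6 dendritic cell markers to 871.6 to 1824 and 576.4 to 708.1, with no marker of either list at 0. By group mean, Acta2 (257.2 CPM in wt, 263.3 in cre) and Pdgfra (20.12 and 23.40) of the first list were not lower in cre. Most of the dendritic cell sum came from Ccr7 (1120 and 585.7). The sum of 7 mast cell and eosinophil markers was 42.25 to 61.80 CPM in wt (Mcpt4 at 0) and 21.56 to 37.12 in cre (Fcer1a at 0). Most of it came from Ccr3 (25.89 and 15.71) and Kit (17.93 and 11.46). All 3 cre macrophage libraries were from males, against 1 of 3 wt libraries. Ribosomal RNA took 19.07% to 26.35% of counts in cre and 19.48% to 20.60% in wt macrophages. In epithelial libraries it took 7.374% to 26.74% (cre) and 18.48% to 31.80% (wt), and mitochondrial genes took 10.38% to 10.68% and 11.62% to 18.07%. The part of these differences in the results below was not tested beyond the fits named beside them. In sorted bulk RNA, fewer cells of a type and less RNA per cell cannot be told apart.

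All 10 genes were higher in macrophages than in epithelial cells when both genotypes were averaged, past the threshold of an edgeR adjusted p under 0.05 and a 2-fold difference. Over all genes tested, 29.7% were higher in macrophages by that rule and 22.5% higher in epithelial cells. The median log2 difference of the 10 was 2.54, against 0.07 over all genes. Apart from Tfec and Mitf, whose epithelial counts were at or near 0 and give no fold, the values ran from 1.15 for Rraga (SE 0.15) to 3.11 for Fnip1 (SE 0.18). Within control libraries alone, 9 of the 10 passed in the same direction. The exception was Rragd, which was lower in wt macrophages than in wt epithelial cells (log2 difference -0.96, SE 0.55, edgeR adjusted p = 0.1386) and higher in cre macrophages than in cre epithelial cells (3.96, SE 0.54, edgeR adjusted p = 6.20e-06). Its average over genotypes therefore describes neither genotype.

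**Figure D1:**
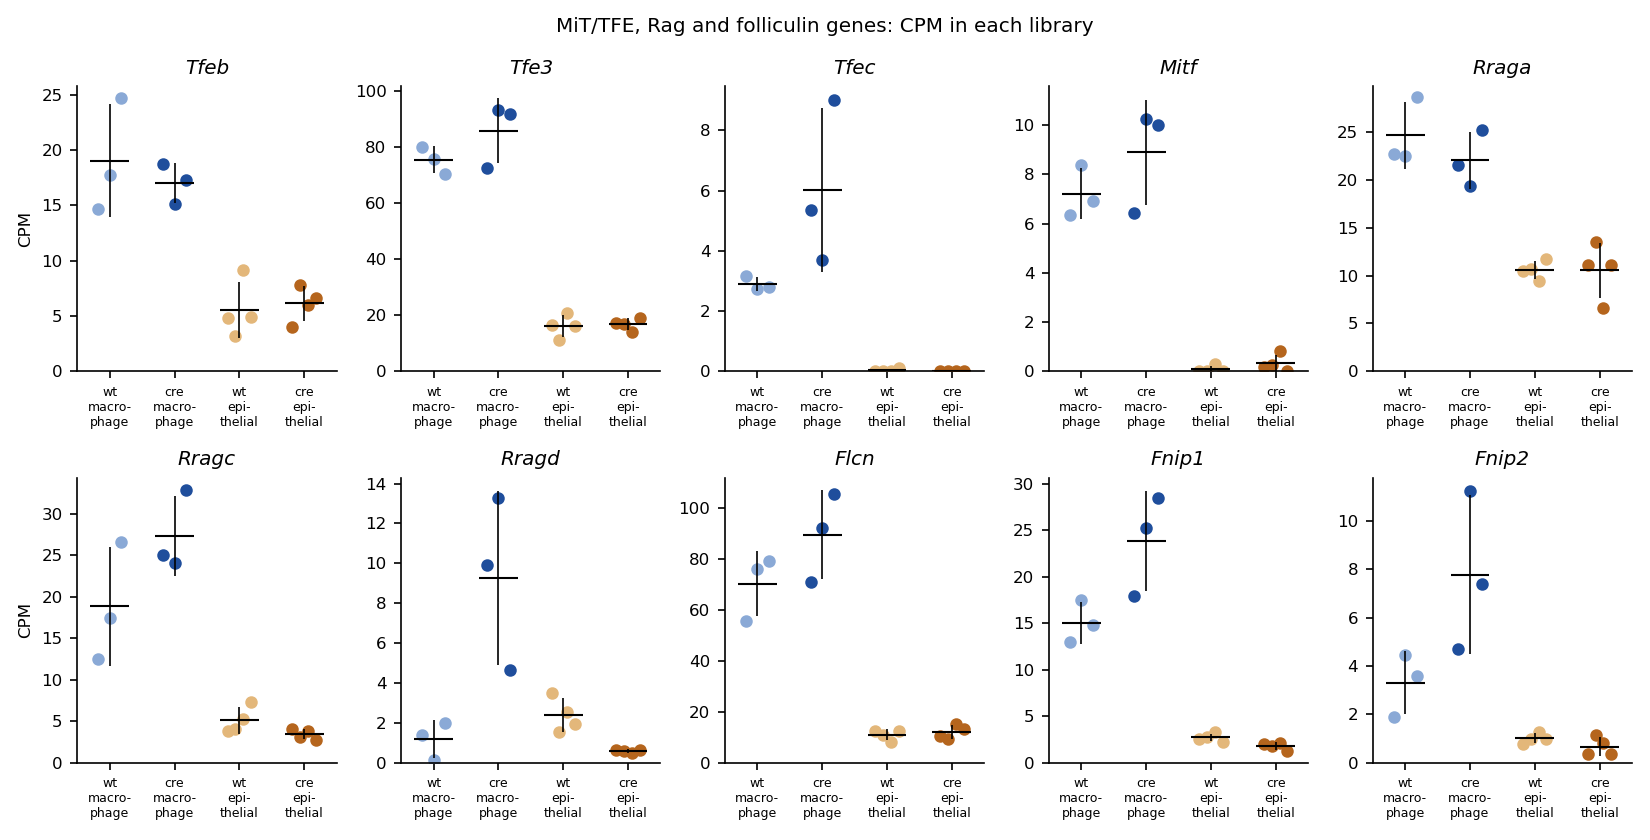
CPM of each gene in each of the 14 libraries (points), with the group mean (horizontal line) and SD (vertical line, cut at 0); each panel has its own linear axis from 0. Macrophage points lie above epithelial points in most panels, whereas for Rragd the 3 wt macrophage libraries, at 0.1443 to 1.993 CPM, overlap the 4 wt epithelial ones, at 1.536 to 3.478.

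Levels of different genes were compared per length, in the deposited FPKM. In wt macrophages Tfe3 (17.25 ± 1.046 FPKM) and Flcn (16.65 ± 3.316) were highest, followed by Rraga (12.60 ± 1.775) and Rragc (6.021 ± 2.297; SD, n = 3 each). Tfeb (3.930 ± 1.069), Fnip1 (1.996 ± 0.3536), Tfec (1.343 ± 0.08139) and Mitf (1.125 ± 0.1920) came next, and Fnip2 (0.3782 ± 0.1581) and Rragd (0.1873 ± 0.1498) were lowest. Neighbours in this order whose libraries overlapped were Tfe3 and Flcn, Flcn and Rraga, Rragc and Tfeb, Tfec and Mitf, and Fnip2 and Rragd. In wt epithelial cells the order opened with Rraga (4.899 ± 0.4376 FPKM) and Tfe3 (3.358 ± 0.8507), and Tfec (0.01139 ± 0.02278) and Mitf (0.01020 ± 0.02040; SD, n = 4 each) closed it.

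Among the transcription factors, Tfe3 (chrX:7762560-7775202) was the most abundant in both cell types. Its wt macrophage libraries were at 80.15, 75.89 and 70.43 CPM and its cre macrophage libraries at 72.51, 93.27 and 91.87. The genotypes overlapped (log2 change 0.20, SE 0.16, edgeR adjusted p = 0.6881). In epithelial cells Tfe3 ranged from 11.08 to 20.65 CPM in wt and from 14.03 to 19.08 in cre libraries, again overlapping (log2 change 0.04, SE 0.19). The intervals of these changes, -0.16 to 0.55 in macrophages and -0.36 to 0.44 in epithelial cells, do not include a 2-fold change.

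Tfeb (chr17:47737030-47792419), the factor best known for lysosome formation, was at 14.71, 17.75 and 24.72 CPM in wt macrophages and 18.72, 15.12 and 17.30 in cre macrophages. The cre libraries lay inside the wt range (log2 change -0.15, 95% interval -0.72 to 0.42). In epithelial cells it was at 3.182 to 9.117 CPM in wt and 4.043 to 7.820 in cre libraries (log2 change 0.15, SE 0.31). Neither change passed the test, and in macrophages the sign rested on wt library 6 (log2 change 0.08 without it).

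Tfec (chr6:16833373-16898441, minus strand) was nearly confined to macrophages among these libraries. Wt macrophages held 27, 19 and 21 counts (3.178, 2.741 and 2.791 CPM) and cre macrophages 34, 22 and 72 counts (5.348, 3.697 and 9.024 CPM). Every cre library lay above every wt library, but the increase did not pass the test over all genes (log2 change 1.06, SE 0.42, unadjusted p = 0.031, edgeR adjusted p = 0.3235). Epithelial cells gave 1 count in 4 wt libraries and 0 in 4 cre libraries, which allows up to 0.0712 CPM over that group, taking 3 counts as the limit for a count of 0 (counting error only). The fitted epithelial changes of such counts depend on the fit's prior and give no fold.

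Mitf (chr6:97807052-98021349) showed 6.355, 8.368 and 6.910 CPM in wt macrophages and 6.449, 10.25 and 10.03 in cre macrophages, with 1 cre library inside the wt range (log2 change 0.31, SE 0.31, edgeR adjusted p = 0.7597). Epithelial libraries held 0, 0, 2 and 0 counts in wt and 2, 3, 7 and 0 in cre. Those counts stayed under the filter and no genotype test was made there, and without a filter the epithelial value did not pass either (unadjusted p = 0.09226). The summed CPM of 5 melanocyte markers was 2.422 to 4.731 in wt and 3.492 to 6.214 in cre epithelial libraries, nearly all from Pmel and Dct (93 and 41 counts in wt, 140 and 52 in cre), with Tyr and Tyrp1 at 0 in every group and Mlana at 1 and 0 counts. Their part in the Mitf counts was not tested.

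Rraga (chr4:86575668-86577285), the RagA subunit, overlapped between genotypes in both cell types. Its libraries were at 22.72, 22.51 and 28.70 CPM in wt and 21.55, 19.33 and 25.19 in cre macrophages, and at 9.401 to 11.72 in wt and 6.601 to 13.47 in cre epithelial cells. The log2 changes were -0.15 (SE 0.21) and -0.01 (SE 0.21). The 95% intervals, -0.62 to 0.31 and -0.45 to 0.43, leave room for changes below 2-fold only.

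Rragc (chr4:123917446-123936997), the RagC subunit, was at 12.48, 17.46 and 26.58 CPM in wt macrophages and 25.01, 24.03 and 32.84 in cre macrophages. In epithelial cells it was at 3.815, 4.059, 5.271 and 7.312 CPM in wt and 4.043, 3.128, 3.772 and 2.752 in cre libraries. The genotypes overlapped in both cell types, with fitted changes of opposite sign: 0.54 in macrophages (SE 0.29, edgeR adjusted p = 0.4947) and -0.60 in epithelial cells (SE 0.27, edgeR adjusted p = 0.1673). The difference of the effects was 1.12 (SE 0.40, unadjusted p = 0.01241, edgeR adjusted p = 0.2062). Rragc shares 264 exonic bases (7.9%) with the antisense gene 4930535I16Rik, and its counts could include reads of that gene because the library method marks no strand.

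Rragd (chr4:32983037-33022180), which encodes RagD and is itself a known MiT/TFE target, was the only one of the 10 whose genotype effect was called different between the cell types. In macrophages its counts were 12, 1 and 15 in wt (1.412, 0.1443 and 1.993 CPM) and 63, 79 and 37 in cre (9.909, 13.28 and 4.637 CPM). In epithelial cells they were 31, 14, 18 and 18 in wt (3.478, 1.536, 2.564 and 1.935 CPM) and 7, 7, 4 and 7 in cre (0.6432, 0.6082, 0.4715 and 0.6214 CPM). Every cre macrophage library lay above every wt one, and every cre epithelial library below every wt one.

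In epithelial cells Rragd fell by 2.002 on the log2 scale (SE 0.39, edgeR adjusted p = 0.009782; n = 4 each). In macrophages its level was 9.274 ± 4.354 CPM in cre against 1.183 ± 0.9456 in wt (SD, n = 3 each), a log2 change of 2.95 (SE 0.69) that did not pass the main test (unadjusted p = 0.002008, edgeR adjusted p = 0.1044). The difference of the effects did pass, at 4.92 (SE 0.77, edgeR adjusted p = 0.008653). These rest on few reads, 28 in all wt macrophage and 25 in all cre epithelial libraries, and in each cell type Rragd passed the filter on low counts only through the genotype where it was higher.

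The Rragd calls depended on the fit. The macrophage increase passed with DESeq2 (adjusted p = 6.36e-04), with no filter (edgeR adjusted p = 0.03618) and with all 14 libraries in a joint fit (edgeR adjusted p = 0.009781), but with sex as a covariate its edgeR adjusted p was 0.6243 (log2 change 2.22). The epithelial decrease kept its size but not its call with the ribosomal RNA share as a covariate (log2 change -2.02, edgeR adjusted p = 0.1112), among males (-1.94, 0.1326; 2 wt and 3 cre libraries) and in the joint fit (-1.99, 0.08482). DESeq2 gave it an unadjusted p of 7.08e-05 and no adjusted one. The difference of effects was not called with the ribosomal RNA share as a covariate (4.68, edgeR adjusted p = 0.1302) or among males (4.10, 0.1365), where wt macrophages are a single library assumed to vary like the other groups. It remained called when any single library was left out.

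Flcn (chr11:59791408-59810016, minus strand), which encodes folliculin, was at 55.67, 76.32 and 79.20 CPM in wt macrophages and 71.10, 92.09 and 105.8 in cre macrophages. The groups overlapped (log2 change 0.35, SE 0.21, edgeR adjusted p = 0.5359). Epithelial levels were 8.119 to 12.57 CPM in wt and 9.297 to 15.32 in cre, also overlapping (log2 change 0.10, SE 0.20).

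Of its partner genes, Fnip1 (chr11:54438199-54518235) was at 12.95, 17.46 and 14.75 CPM in wt and 17.93, 25.21 and 28.45 in cre macrophages, without overlap. Its epithelial libraries were at 2.581, 2.743, 3.276 and 2.258 CPM in wt and 2.022, 1.825, 2.122 and 1.243 in cre, also without overlap but in the opposite direction. Neither change passed over all genes: 0.67 in macrophages (SE 0.25, edgeR adjusted p = 0.2988) and -0.61 in epithelial cells (SE 0.30, edgeR adjusted p = 0.21). The difference of the effects, 1.25 (SE 0.35), had an unadjusted p of 0.002602 and an edgeR adjusted p of 0.1131.

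Fnip2 (chr3:79455974-79567796, minus strand) was at 1.883, 4.472 and 3.588 CPM in wt and 4.719, 11.26 and 7.394 in cre macrophages. All cre libraries lay above all wt libraries, the nearest by a small margin (log2 change 1.236, SE 0.46, edgeR adjusted p = 0.3022). In epithelial cells Fnip2 had 7 to 9 counts in wt and 4 to 13 in cre libraries, overlapping and under the filter. Its difference of effects was 1.81 (SE 0.66, edgeR adjusted p = 0.21).

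Counted together, 0 of 10 genes passed by genotype in macrophages, where 0.944% of all genes tested passed in either direction. At an unadjusted p under 0.05 there were 4 (Tfec, Rragd, Fnip1 and Fnip2), all higher in cre, against 1802 of all 14087 genes tested in either direction. DESeq2 called 1 (Rragd), against 497 of all 27038 genes with counts. The libraries of the genotypes did not overlap for the same 4 genes, against 19.7% of all genes tested. The median log2 change of the 10 was 0.45, against 0.00 over all genes, with 8 values above and 2 below 0. In epithelial cells 7 of the 10 passed the filter (not Tfec, Mitf and Fnip2) and 1 was called, Rragd, against 9.17% of all genes. Groups did not overlap for Rragd and Fnip1, against 17.0% of all genes. For the difference of effects 1 of 10 was called, Rragd, where 0.702% of all genes were.

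**Figure D2:**
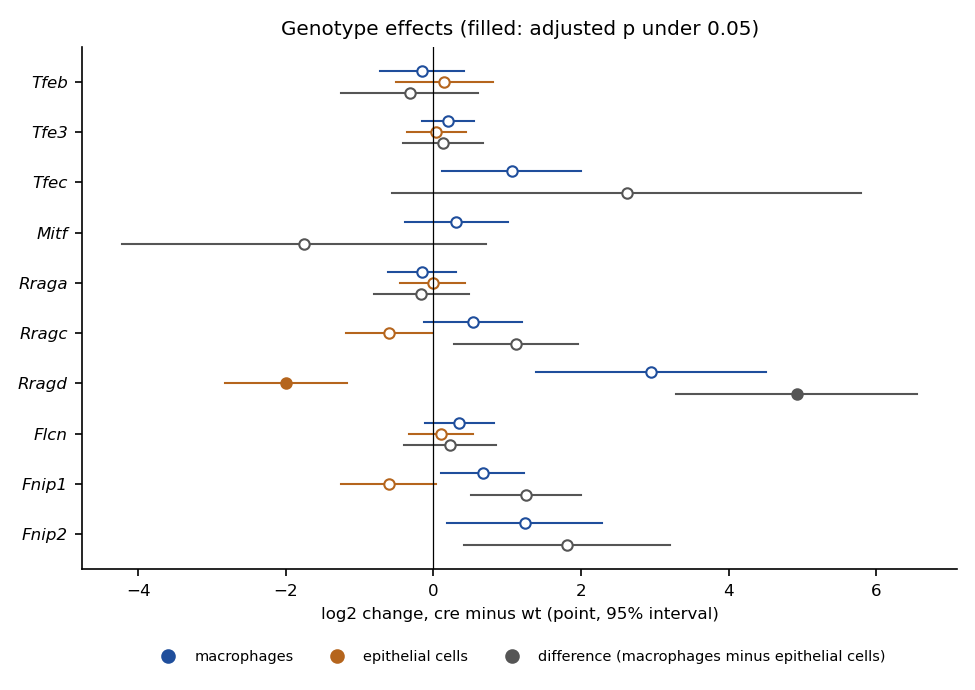
Log2 change (cre minus wt) with its 95% interval for each gene in macrophages (blue), in epithelial cells (orange) and as the difference between them (grey); filled points have an edgeR adjusted p under 0.05, and genes under the epithelial filter have no orange point. Only the epithelial change of Rragd (-2.002) and its difference of effects (4.92) are filled.

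Summing FPKM within each family showed which member supplied most transcript. Tfe3 made up 72.95% ± 4.336 of MiT/TFE transcript in wt macrophages, 71.82% ± 4.352 in cre macrophages, 76.85% ± 3.941 in wt epithelial cells and 74.53% ± 5.694 in cre epithelial cells. Tfeb followed with 16.62% ± 4.546, 13.04% ± 2.687, 22.73% ± 3.711 and 24.44% ± 5.137 (SD; n = 3 macrophage, 4 epithelial). The family sum was 23.65 ± 0.5132 FPKM in wt and 27.38 ± 3.039 in cre macrophages, against 4.416 ± 1.334 and 4.743 ± 0.5104 in epithelial cells.

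Among the 3 Rag genes, the share of Rragd was 0.9735% ± 0.7271 in wt and 7.190% ± 3.883 in cre macrophages, and 5.218% ± 2.072 in wt and 1.447% ± 0.1677 in cre epithelial cells. Rragc FPKM exceeded Rragd FPKM in all 14 libraries. The ratio was 17.62, 241.4 and 26.60 in wt macrophages, the middle value resting on 1 Rragd count, and 5.035, 3.611 and 14.13 in cre macrophages. In epithelial cells it was 2.188 to 7.537 in wt and 8.835 to 15.96 in cre. So the groups did not overlap in either cell type and were ordered in opposite ways. In the folliculin arm, Flcn supplied 87.49% ± 1.186 and 84.05% ± 1.407 in wt and cre macrophages and 84.12% ± 5.069 and 89.73% ± 3.484 in epithelial cells.

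**Figure D3:**
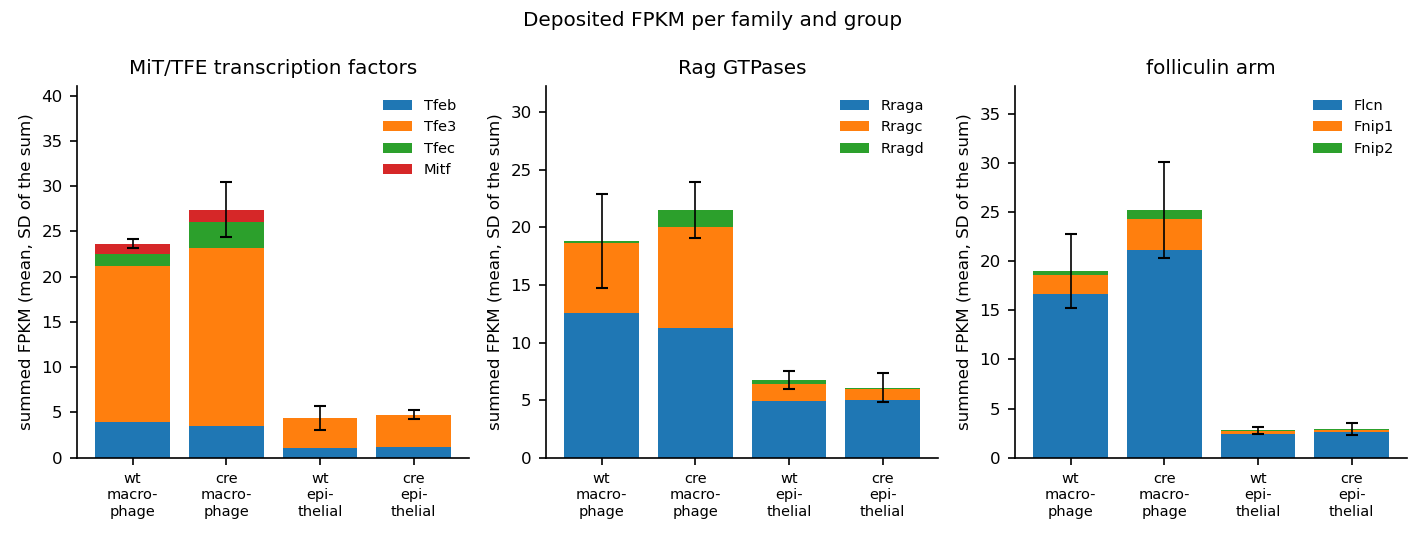
Mean deposited FPKM of each gene stacked within its family for the 4 groups, on linear axes from 0, with the SD of the family sum as error bars. Tfe3, Rraga and Flcn form the largest block of their family in every group, and the Rragd block is thicker in cre than in wt macrophages.

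The other genes of the pathway were described from lists. The list of lysosomal nutrient sensing (the Ragulator scaffold, the GATOR and KICSTOR complexes and amino acid sensors) held 30 names, of which 26 matched a symbol and the others are alternative names of matched genes. Of the 26, 24 were tested in macrophages, where 0 passed in the main edgeR fit and the median log2 change was 0.02. The smallest p-values there belonged to Wdr24, a GATOR2 subunit (1.17, SE 0.38, edgeR adjusted p = 0.2386), Lamtor3 and Lamtor1, Ragulator subunits (0.51 and 0.36), and the leucine sensor family gene Sesn1 (0.71). In epithelial cells the Ragulator gene Lamtor5 rose (0.56, SE 0.11, edgeR adjusted p = 0.009638) and the gene Bmt2, encoding a sensor of S-adenosylmethionine, fell (-1.11, SE 0.28, edgeR adjusted p = 0.02534). These 2 of 24 stand beside 9.17% of all genes called there. In epithelial cells none of the list was called among males, with the ribosomal RNA share as a covariate or in the joint fit. In macrophages the joint fit called 1, Wdr24 (edgeR adjusted p = 0.04691). Bmt2 lost its call in 9 of 19 alternatives, among them leaving out cre library 10, 5 or 9 or wt library 2. For the difference of effects 0 of 25 passed.

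Of 17 genes that set where MiT/TFE proteins sit in the cell, 16 were tested and 0 passed by genotype in macrophages (median 0.12). The nearest was Mcoln1, the lysosomal calcium channel upstream of calcineurin (0.70, SE 0.21, edgeR adjusted p = 0.1939). Mcoln1 also belongs to the list of target genes below. In epithelial cells 1 of 16 passed, against 9.17% of all genes: Ppp3r1, a calcineurin regulatory subunit. Its level was 27.96 ± 10.20 CPM in wt libraries and 9.596 ± 2.028 CPM in cre libraries (SD, n = 4), a log2 change of -1.56 (SE 0.25, edgeR adjusted p = 0.007008). Ppp3r1 lost its call in 3 of 22 alternatives: the ribosomal RNA covariate, the joint fit and log2(FPKM + 1) without its filter. Across cell types 4 of 17 were called higher in macrophages, against 29.7% of all genes, and 2 higher in epithelial cells, against 22.5%. The kinase gene Prkcd was higher in macrophages (2.25), as were Ppp3r1 and the 14-3-3 gene Ywhag. Prkca and the 14-3-3 gene Sfn were higher in epithelial cells (-3.23 and -5.29). The Sfn value rests on 14 counts in all wt and 19 in all cre macrophage libraries. The kinase gene Prkcb was also higher in macrophages. Its epithelial libraries held 0 to 5 counts in wt and 0 to 2 in cre, which give no fold.

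Of 29 known MiT/TFE target genes, 28 were tested in macrophages and 11 rose with the cre genotype, 0 fell, with 27 of 28 values above 0 and a median of 0.84. Besides Gpnmb, Ctsd, Ctsb and the proton pump gene Atp6v0d2, these were Clcn7, a lysosomal chloride-proton exchanger (1.15, SE 0.16), Naglu, a heparan sulfate hydrolase (1.14, SE 0.19), Cd63 (1.07) and Lamp1 (0.95), lysosomal membrane proteins, Atp6v1a, a proton pump subunit (0.99), Ctsa, a carboxypeptidase (0.97), and Hexa, a hexosaminidase subunit (0.90). Their edgeR adjusted p-values ran from 1.66e-05 for Gpnmb to 0.04827 for Hexa. Of all 14087 genes tested in macrophages, 103 rose and 30 fell, 7110 values were above 0 and the median was 0.00. The list overlaps genes already reported from these libraries and was chosen with that known, so its count is a description. With sex as a covariate 1 of the 28 passed (Gpnmb) and with the ribosomal RNA share as a covariate 3, at medians of 0.90 and 0.69. Fits that called more included DESeq2 (18 of 29), the joint fit (17 of 29), no filter (14 of 29) and voom (14 of 28). Leaving out single libraries gave 3 (without cre 10, cre 8 or wt 6), 4 (without wt 4), 5 (without wt 2) or 6 (without cre 9). Along the same contrast the macrophage marker sum given above was higher in cre libraries. The sums for fibroblast and smooth muscle (though not Acta2 and Pdgfra), dendritic cell, and mast cell and eosinophil markers were lower. The part of these sums in the target gene counts was not tested.

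In epithelial cells 3 of 27 target genes rose by edgeR: Ctsd (0.52), Acp5 (0.50) and Ctsb (0.39), against 9.17% of all genes called there. With the GC and length correction 1 was called (Ctsb), and 0 were among males, with the ribosomal RNA covariate or in the joint fit. Leaving out single libraries gave 2 (without cre 5), 1 (cre 9), 6 (cre 8) or 5 (wt 6), and 3 or 4 otherwise. For the difference of effects 7 of 29 were called, all larger in macrophages (Gpnmb, Ctsd, Ctsb, Lamp1, Atp6v1a, Tpp1 and Cd63), with values from 0.89 for Cd63 to 7.83 for Gpnmb, against 0.702% of all genes. Among males 2 stayed called (Gpnmb and Ctsd), and with the ribosomal RNA covariate 3 (also Ctsb). The E-box CACGTG shown above for Ctsd was present in 10 of the 23 target genes with a promoter window, TCACGTGA in 7 and TCATGTGA in 3. The list was drawn up from genes known to carry such motifs, so these counts only describe it. They are per gene, with a match in any of its windows, whereas the shares given above are per window.

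**Figure D4:**
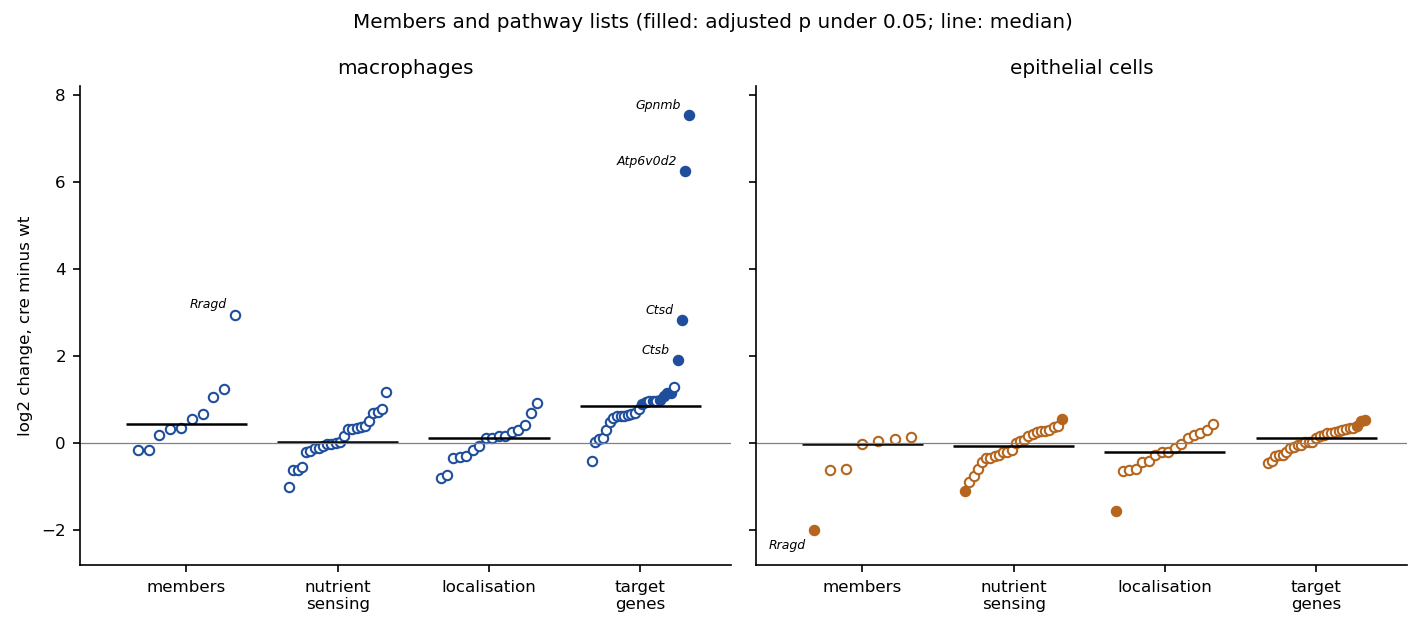
Log2 change (cre minus wt) of each tested gene of the 10 members and of the 3 pathway lists in macrophages (left) and epithelial cells (right), sorted within each list; filled points have an edgeR adjusted p under 0.05 and black lines are medians. The target genes in macrophages hold 11 filled points around a median of 0.84, and the nutrient sensing and localisation lists hold none there.

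The genes whose levels followed each member most closely were found by Pearson's r of log2(CPM + 1) over the 14 libraries, among genes with a mean of 5 CPM or more. These libraries share a strong split by cell type, so r is a description. For 9 members the 3 nearest genes had r of 0.957 or more, for example Trex1, Il6ra and Cln8 for Tfe3 (0.992, 0.992 and 0.992), Ypel3 for Tfeb (0.965), Ifrd1 for Mitf (0.991), Nrg1 for Tfec (0.988), Cotl1 for Rraga (0.981) and Plekho1 for Flcn (0.991). Sec14l1 was among the 3 nearest of both Rragc (0.981) and Fnip1 (0.992). Values for Rragd were lower, with Ppp3cb at 0.864 and Ighv14-3 at 0.854. Over the 6 macrophage libraries alone its nearest were Ndfip1 (0.998), Nxt1 (0.993), Gnaq (0.991), Sh3glb1 (0.989) and Usp9x (0.987), picked from all genes at that level over few points.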

How the data were processed

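Libraries came from the Smart-seq2 method (cDNA primed at poly(A) tails, strand not marked) and were read from 1 end over 50 bases, per the labels' protocols. The authors deposited raw counts per gene and library and a table of FPKM with the same 14 columns. FPKM equalled the count divided by 1 value per gene and 1 factor per library (largest relative deviation 1.78e-15 over 13471 genes). Per the submitters' processing notes, the tools included DESeq2 1.24.0, Picard 2.19.2 and STAR 2.5.2b, on GRCm38. How reads were assigned to genes, and with which annotation and strand setting, is not given in the sources used here. The 50-base stretches of the 10 genes' GENCODE M21 transcripts occurred in other genes for 6.75% in Rragc, 0.75% in Fnip2, 0.19% in Rragd and 0% in the others.

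Counts were tested with edgeR 4.0.16 (R 4.3.3): TMM scaling, filterByExpr (minimum count 10), quasi-likelihood F tests with robust dispersion, and Benjamini-Hochberg adjusted p under 0.05 over all genes tested. Genotype was tested in separate fits for macrophages and epithelial cells. The difference of effects (macrophage minus epithelial) and the difference between cell types (also requiring an absolute log2 difference of 1) used all 14 libraries. The SE was taken as the absolute log2 change over the square root of F, and intervals are 95%. CPM use TMM sizes over all 14 libraries. Totals of 7269103 to 9364551 counts make 1 count about 0.1 CPM, so levels near 1 CPM rest on about 10 counts.

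Groups, mouse numbers and sex came from the labels. The series text counts 3 control and 4 cre animals, but titles show 4 numbers in each genotype. If libraries of the same cell type and genotype share an animal, the p-values by genotype are too small. Macrophage and epithelial libraries share mouse numbers. Deviations of same-numbered libraries correlated by -0.0616 to 0.0915, and those of differently numbered ones by -0.0911 to 0.0630. For each wt macrophage library the same number gave the highest value, and for no cre library did it. Such small values cannot settle whether a shared number marks a shared animal. Alternatives were RLE scaling, DESeq2 1.42.0, no filter, a filter of 50, voom and limma 3.58.1 on log2(FPKM + 1) or + 0.1. Others were sex or ribosomal RNA share as covariates, males only, and ribosomal, mitochondrial and pseudogene rows left out. Further ones were GC and length trends removed, a joint fit, a replicate block and leaving out each library. The members, lists and tests were chosen with earlier results of these data known. Named were the 10 genes, Tsc2, the list genes past a threshold or with the smallest p (not all are repeated in the text), and the nearest genes by correlation, of which 1 is not reported here. Protein sequences were not used. Kics2, Gatsl2, Gatsl3 and Samtor matched no symbol. Code was tested on simulated data.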

Additional observations from a re-analysis of the deposited data

Results flagged for a closer look

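Among members, Rragd stood out because its genotype effect differed between the cell types (log2 difference of effects 4.92, edgeR adjusted p = 0.008653). It was higher in 3 of 3 cre macrophage libraries and lower in 4 of 4 cre epithelial libraries than any wt library of that cell type. Of all genes tested, 19.7% in macrophages and 17.0% in epithelial cells had no overlap of genotypes in either direction. In each cell type Rragd passed the filter on low counts only through the genotype where it was higher. Its difference of effects lost its call in 3 of the 25 alternatives that tested it. A difference of effects was also called for the target genes Gpnmb (7.83), Ctsd (2.27), Ctsb (1.49), Tpp1 (1.23), Atp6v1a (1.16), Lamp1 (0.90) and Cd63 (0.89). Of these, Cd63 lost its call in 16 and Tpp1 in 12 of 28 alternatives.

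In 2 groups of 4 epithelial libraries a single library lay far from the others. For Tfec, wt library 7 was at 0.1075 CPM, which is 1 count, with the other wt epithelial libraries at 0. For Mitf, wt library 6 was at 0.2849 CPM, which is 2 counts, with the others at 0. With the other libraries at 0, any count gives the largest possible gap, so these flags carry no weight.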

How the results depend on the processing

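Over 20 alternatives in macrophages, 22 in epithelial cells, 28 for the difference of effects and 30 between cell types, 133, 1243, 115 and 8543 genes in the main fits became 2 to 497, 3 to 2299, 8 to 509 and 5011 to 11169. In macrophages DESeq2 called 497 genes, no filter 299, voom 200, the joint fit 374, males only 32, log2(FPKM + 1) without its filter 30, the ribosomal RNA covariate 18 and the sex covariate 2. In epithelial cells voom called 2299, DESeq2 1957, the GC and length correction 415, log2(FPKM + 1) without its filter 405, the joint fit 19, males only 5 and the ribosomal RNA covariate 3. For the difference of effects DESeq2 called 509, log2(FPKM + 1) 293 (216 without its filter), no filter 195, males only 18, the ribosomal RNA covariate 9 and the replicate block on mouse number 8. Between cell types log2(FPKM + 1) called 5011, and 5533 without its filter. Leaving out 1 library gave 29 to 87 genes in macrophages, 178 (without cre 9) to 1947 (without cre 8) in epithelial cells and 54 to 229 for the difference of effects. The causes were not tested.

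Of the 10 members, 1 was called in macrophages (Rragd) with DESeq2, no filter or the joint fit, and 0 otherwise. In epithelial cells 0 were called with DESeq2 (no adjusted p for Rragd), a filter of 50 counts or the filtered FPKM fits (Rragd not tested), FPKM without its filter, males only, the ribosomal RNA covariate or the joint fit. For the difference of effects 0 were called with that filter, the filtered FPKM fits, males only, the ribosomal RNA covariate or the replicate block (Rragd 5.11, edgeR adjusted p = 0.09184), under which 2 of the 7 target genes stayed called (Gpnmb and Ctsd). Between cell types 6 were called with either filtered FPKM fit, which tested fewer genes. Single libraries left out changed none of these member counts.

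Signs turned only for values that no fit called, apart from Rragd between cell types in controls alone (-0.96). In macrophages these were Tsc2 with sex as a covariate (0.31) or males only (0.32), and Tfeb without wt library 6 (-0.3213 to 0.0766 over libraries left out). In epithelial cells they were Tfeb in males (-0.35) or without wt 4 (-0.0462 to 0.4947 over libraries left out). Tfe3 turned with a filter of 50 (-0.0058), sex (-0.0053), males (-0.16) or without cre 9 or wt 4 (-0.1061 to 0.1861). Rraga turned with DESeq2 (0.0068), no filter (0.0072), voom (0.0288) or sex (0.0281). Its sign also turned with ribosomal, mitochondrial and pseudogene rows left out (0.0098) or without cre 8 or wt 7 (-0.1492 to 0.1512). Flcn turned with voom (-0.0178) or without cre 8 or wt 6 (-0.0249 to 0.2136). For the difference of effects they were Tfe3 with voom (-0.14), the GC and length correction (-0.0813) or without wt epithelial 6 (-0.0391 to 0.2564), Mitf with unfiltered FPKM (0.11), Rraga with the ribosomal RNA covariate (0.39) and Flcn in males (-0.17). Depth limits Rragd, Tfec, Mitf and Fnip2, at 0 to 15 counts per library in at least 1 group.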
